A study of Mus musculus with 12 samples.

Results

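This account follows 53 genes of the lysosome in macrophages grown from mouse bone marrow: cathepsins and other acid hydrolases, their activators, membrane proteins, subunits of the vacuolar proton pump, and the MiT-TFE transcription factors. They were chosen by symbol, with no cut on measured values but with earlier results of these data known, and 52 of the 53 had a row among the 23438 genes of the table. Ctsf was not analysed here. The cells were bone marrow derived macrophages (BMDMs) of C57 mice with atherosclerosis, taken at day 7 of differentiation, with 7 wild-type (WT) and 5 Baf60a knockout (KO) libraries. Baf60a is the SWI/SNF chromatin remodelling subunit encoded by Smarcd1. The labels do not say how the knockout was made, in which cells it acted, or whether each library came from its own animal, so p-values measure the spread between libraries. Values are TPM, the share of each gene among all transcripts on a fixed total, corrected for transcript length, so that levels of different genes can be compared.

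Smarcd1 ranged from 5.99 to 7.58 TPM in KO and from 11.6 to 15.6 TPM in WT, a log2 fold change of -0.97 with 9 libraries (adjusted p of 8.3e-04 by limma, described with the genotype comparison). All 12 macrophage markers on the list reached 1 TPM or more in each genotype, and their summed level was 16560.3 to 17090.9 TPM in KO, 26035 to 30043 TPM in WT replicates 1, 5, 6 and 7 and 7961 to 27141 TPM in WT replicates 2, 3 and 4. Every KO library thus lay below the first 4 of these WT libraries in this sum. Lyz2, its largest term in every library, was at 4932 to 5853 TPM in KO. In WT replicates 1, 5, 6 and 7 Lyz2 was at 14635 to 16912 TPM. No sum without Lyz2 was taken, so the gap does not show a lower level across the markers. With 9 libraries 1 of the 12 macrophage markers rose (Cd14) and 2 fell (C1qc and Lyz2). Lyz2 also weighed on the sums of WT replicates 2, 3 and 4, where it was at 16587, 21547 and 5232 TPM. In these 3 libraries 7 of the 12 markers lay below all of WT replicates 1, 5, 6 and 7, and 0 lay above. WT replicates 2, 3 and 4 stood apart from the other 9 libraries. In these 3 the 12 fibroblast and smooth muscle markers summed to 4323 to 11004 TPM, against 117 to 441 TPM in WT replicates 1, 5, 6 and 7 and 204 to 626 TPM in KO. The 10 neutrophil markers summed to 89.8 to 115 TPM in the 3 libraries, 1204 to 1556 TPM in the other WT and 1014 to 6272 TPM in KO. Mast cell and basophil, lymphocyte and erythroid markers stayed under 13 TPM in sum in every library. In bulk RNA, fewer cells of a type and less RNA per cell cannot be told apart. Genotype differences are therefore given with all 12 libraries and with the 9 left without WT replicates 2, 3 and 4, written WT 2, 3 and 4 from here on, as are WT 1, 5, 6 and 7.

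Lysosomes are acidic compartments in which macrophages break down what they engulf, including lipoproteins and dying cells. The vacuolar ATPase (V-ATPase) pumps protons into them: its V1 sector, on the cytosolic side, splits ATP, and its V0 sector carries protons through the membrane. Cathepsins and other hydrolases work at the resulting low pH. Tfeb, Tfe3 and Mitf bind E-boxes of the form CACGTG, which lie near the starts of many lysosomal genes.

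The E-box is shown first because it is the sequence through which these factors are known to act on this gene set. RefSeq promoter windows (GRCm38.p6, the mm10 assembly; 300 bases, 250 before the gene start and 50 after) were found for 43 of the 52 genes. CACGTG, which reads the same on both strands, occurred in the windows of 16 of the 43 (37.2%), or in 30.2% of their 53 windows, and in 7.15% of all 32851 windows. The longer form TCACGTGA, which contains CACGTG, occurred in 8 of the 43 (18.6%), or in 15.1% of their windows, and in 0.974% of all windows. Ctsh, Atp6v1g1, Asah1, Npc1, Ctsb, Atp6v1h, Atp6v1c1, Atp6v0d2 and Atp6v1b2 had no window to search. The stretches below come from a membrane protein with the most matches (Lamp1), the channel Mcoln1, the membrane protein Cln3, 2 cathepsins, 2 glycosidases and the V1 subunit Atp6v1a, with the E-boxes in capitals, 5′ to 3′ on the strand of the gene.
Lamp1, chr8:13159085-13159160, plus strand: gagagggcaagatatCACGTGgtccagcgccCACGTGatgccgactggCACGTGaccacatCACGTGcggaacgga
Mcoln1, chr8:3500462-3500491, plus strand: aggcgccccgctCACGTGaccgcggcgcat
Cln3, chr7:126583340-126583369, minus strand: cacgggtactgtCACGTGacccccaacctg
Ctsd, chr7:142387908-142387937, minus strand: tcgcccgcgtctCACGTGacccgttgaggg
Ctsl, chr13:64370739-64370768, minus strand: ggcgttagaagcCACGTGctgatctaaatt
Gaa, chr11:119267808-119267843, plus strand: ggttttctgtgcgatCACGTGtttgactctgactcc
Gla, chrX:134601182-134601211, minus strand: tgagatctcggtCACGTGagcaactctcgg
Atp6v1a, chr16:44139370-44139405, minus strand: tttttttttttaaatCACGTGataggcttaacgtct
Lamp1 held 4 E-boxes between 61 and 15 bases before its start. The Cln3 match lay before the second of its listed starts, inside the gene. By role, the E-box was found in 3 of 9 peptidase genes, 6 of 14 sugar and sulfate hydrolase genes, 0 of 3 sphingolipid genes, 3 of 5 membrane protein genes, 3 of 5 V0 and 1 of 4 V1 genes, and 0 of 3 MiT-TFE genes. The printed stretches of Cln3, Ctsd, Mcoln1 and Ctsl overlap an annotated exon of the same gene and that of Gla an exon of Hnrnph2. That of Atp6v1a lies inside its own gene but overlaps no exon, and those of Lamp1 and Gaa overlap no annotated gene. A match describes letters only and does not show binding.

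The lysosomal genes were abundant. All 52 were at 1 TPM or above in every library and passed the filter of the test, and 27 were at 100 TPM or above in every library. Together they took between 2.78% (WT replicate 4) and 4.40% (KO replicate 5) of the fixed TPM total. The columns sum to 940127 to 947987 TPM, less than that total, so shares of the listed TPM would be slightly higher. The 5 most abundant were Ctsd, Ctsb, Psap, Ctsl and Ctss, which ranked 5th, 7th, 12th, 38th and 45th among all genes by mean level and made up 60.8% to 69.5% of the TPM of the group. Ctsd is an aspartic protease, Ctsb, Ctsl and Ctss are cysteine proteases, and Psap is the precursor of the saposins, which help enzymes reach their sphingolipid substrates. At the other end, 9 genes averaged under 25 TPM: Ctso, Sgsh, Ids, Idua, Arsa, Arsb, Smpd1, Atp6v0d2 and Mitf. The mean level ran from 8777 TPM for Ctsd to 14.4 TPM for Ids, the iduronate sulfatase.

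**Figure D1:**
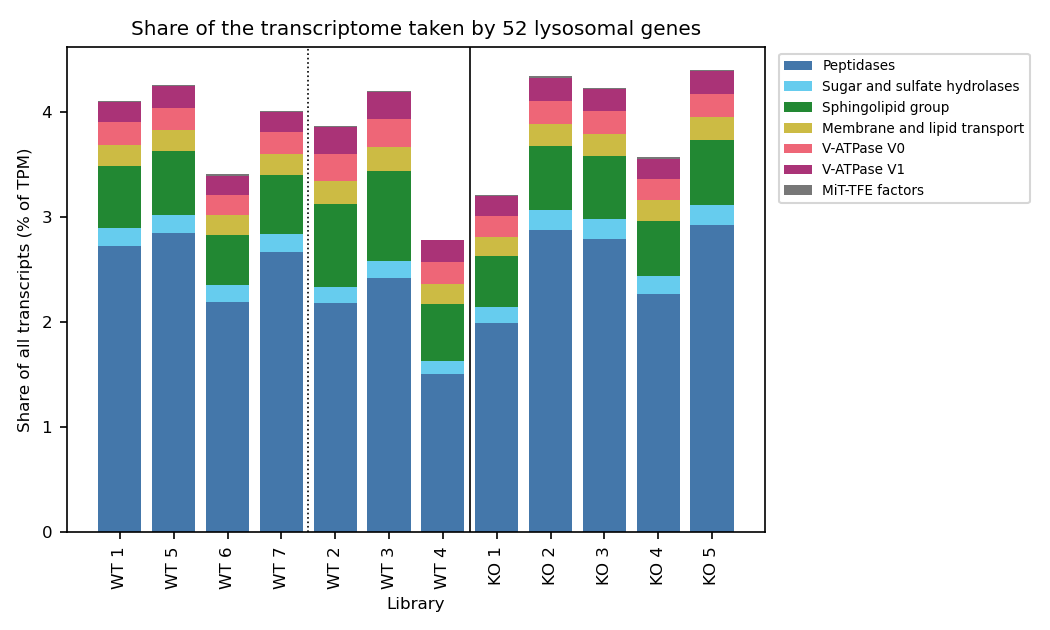
Share of the fixed TPM total (y axis, percent) taken by the 52 lysosomal genes in each library (x axis), stacked by role. The dotted line parts WT 1, 5, 6 and 7 from WT 2, 3 and 4, and the solid line parts WT from KO. The stacks run from 2.78% in WT replicate 4 to 4.40% in KO replicate 5, and the peptidases fill most of each.

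The summed share did not separate the genotypes. It was 3.21%, 4.34%, 4.23%, 3.57% and 4.40% in KO replicates 1 to 5, and 4.11%, 4.26%, 3.41% and 4.01% in WT 1, 5, 6 and 7. In WT 2, 3 and 4 it was 3.87%, 4.199% and 2.78%. The KO mean was 3.95% ± 0.531 (SD, n = 5), the mean of all WT 3.81% ± 0.533 (SD, n = 7) and that of WT 1, 5, 6 and 7 was 3.95% ± 0.374 (SD, n = 4). The difference of 0.145 percentage points with all 12 libraries was smaller than the pooled SD of 0.532, and it was 0.0032 points with 9. It was -0.025 points without WT replicate 4. The V-ATPase subunits took 0.418% ± 0.0247 (SD, n = 5) in KO and 0.403% ± 0.0189 (SD, n = 4) in WT 1, 5, 6 and 7. Over all 7 WT they took 0.438% ± 0.0561, so the difference was 0.0151 percentage points with 9 libraries and -0.0202 with 12.

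The comparison the series states, KO against WT, called none of the 52 genes. Smarcd1 transcript was still at 5.99 to 7.58 TPM in KO, and these data hold no values for Baf60a protein. Differences were tested by limma over the 11152 genes that reached 1 TPM in 5 libraries or more, on log2(TPM + 1), which understates the change of low genes, with Benjamini-Hochberg adjustment and a threshold of 0.05. With all 12 libraries limma called 0 of 52 and 14 genes in all (0.126% of genes tested). With 9 libraries it called 0 of 52 and 260 genes in all (2.33%). At an unadjusted p under 0.05 there were 13 of 52 (25%, against 17.5% of all genes) with 12 libraries and 15 of 52 (28.8%, against 18.9%) with 9. Log2 fold changes were above 0 in 39 of 52 genes with 9 libraries (75%, median 0.04), against 67.5% of all genes tested (median 0.05). With 12 they were above 0 in 33 of 52 (63.5%, median 0.05), against 57.9% of all (median 0.04). Their size passed 0.5 for Ctsk alone with 9 libraries, and for 6 of 52 with 12 (Ctsc, Ctsk, Ctsl, Cln3, Atp6v0d2 and Mitf).

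**Figure D2:**
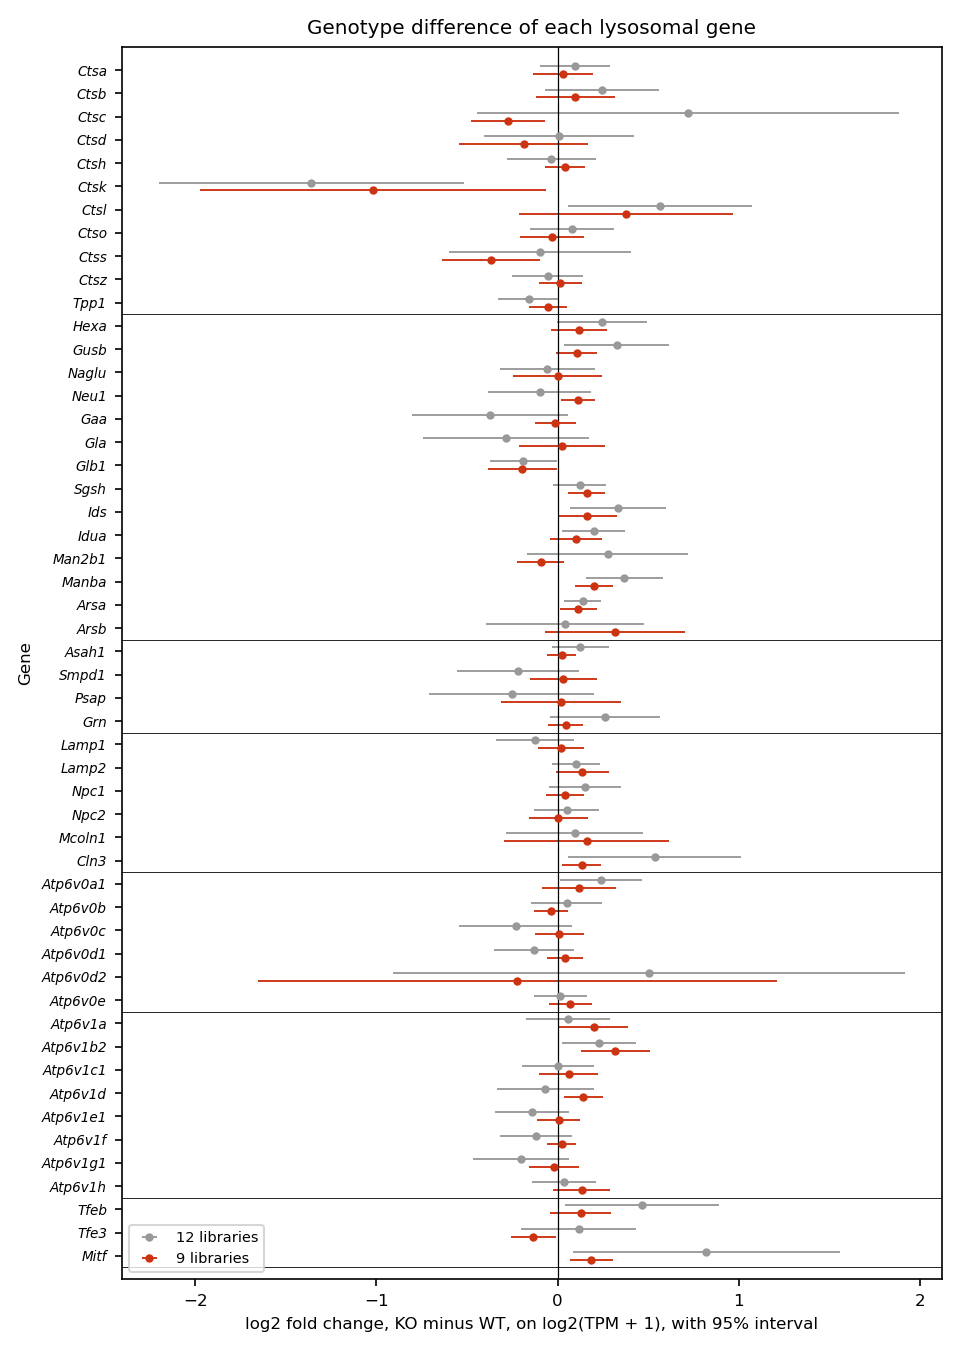
Log2 fold change of KO minus WT on the log2(TPM + 1) scale (x axis) for each of the 52 genes (y axis, grouped by role), with bars for the 95% interval from limma; grey is for all 12 libraries and red for the 9 without WT 2, 3 and 4. Most red intervals lie close to 0, while those of Ctsk, Ctsl and Atp6v0d2 are wide.

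Among the peptidases, Ctsk showed the lowest KO values relative to WT without passing the test. Ctsk encodes cathepsin K, a collagen-degrading protease best known from osteoclasts (chromosome 3, 95499256 to 95509362 in mm10). It was at 10.9, 23.1, 21.2, 14.1 and 31.5 TPM in KO replicates 1 to 5 and at 44.0, 71.7, 15.2 and 48.6 TPM in WT 1, 5, 6 and 7. WT 2, 3 and 4 were at 86.1, 57.6 and 65.7 TPM. All WT libraries except replicate 6 thus lay above all KO libraries. KO minus WT on the log2 scale was -1.36 ± 0.386 (SE, limma adjusted p of 0.208) with 12 libraries and -1.02 ± 0.427 (adjusted p of 0.237) with 9. Without WT replicate 6 it was -1.63 (adjusted p of 0.0321) from 12 libraries and -1.46 (adjusted p of 0.0396) from 9, so the call turned on that library. The 9 osteoclast markers summed to 133 to 165 TPM in WT 1, 5, 6 and 7, 106 to 119 TPM in WT 2, 3 and 4 and 139 to 234 TPM in KO. Of these, 6 of 9 reached 1 TPM in KO, and Calcr stayed at or under 0.05 TPM. In WT replicate 6 the 6 markers went different ways. Acp5 was lowest there of WT 1, 5, 6 and 7 (30.5 TPM against 73.8 to 85.4 TPM), as was Itgb3. Tnfrsf11a was highest there (70.4 TPM against 51.65 to 52.4 TPM), as were Nfatc1 and Dcstamp, and Mmp9 lay between. The part of osteoclasts in the Ctsk values was not tested.

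Ctsl, the cathepsin L gene (chromosome 13, 64359337 to 64370890), had the highest ratio of highest to lowest KO library among the 5 most abundant genes, 2.47. KO replicates 1 to 5 were at 1670.5, 4111, 4130.2, 2574 and 3718 TPM. WT 1, 5, 6 and 7 were at 2476, 2729, 1821 and 2515 TPM, and WT 2, 3 and 4 at 1944, 1736 and 1577.5 TPM. KO replicates 2, 3 and 5 exceeded every WT library, KO replicate 4 lay inside the WT range, and KO replicate 1 lay below WT 1, 5, 6 and 7. For Ctsl the log2 fold change of 0.38 with 9 libraries had a 95% interval of -0.21 to 0.97 (limma adjusted p of 0.481), and that of 12 libraries was 0.56 with an interval of 0.06 to 1.07 (adjusted p of 0.261).

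Ctsd, Ctsb and Ctss overlapped between the genotypes. Ctsd (chromosome 7, 142375911 to 142388038) was at 6352, 10133, 9761, 7471 and 10062 TPM in KO and at 10432, 11024, 7832 and 10206 TPM in WT 1, 5, 6 and 7. It was at 7795, 8962 and 5289.6 TPM in WT 2, 3 and 4, and its log2 fold change was -0.19 (interval -0.54 to 0.17, limma adjusted p of 0.579) with 9 libraries and 0.01 with 12. Ctsb was at 7257, 8985, 8596, 7691 and 9925 TPM in KO and 8265, 8412, 6917 and 8045 TPM in WT 1, 5, 6 and 7. WT 2, 3 and 4 held 6796, 7594 and 4666 TPM of it. KO minus WT was 0.10 on the log2 scale (interval -0.12 to 0.31, limma adjusted p of 0.644) with 9 libraries and 0.24 (adjusted p of 0.336) with 12.

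Ctss, the protease that trims the invariant chain of MHC class II, was at 1696, 2440.1, 2358, 1925 and 2388 TPM in KO. It was at 2879, 3094, 2372 and 2754 TPM in WT 1, 5, 6 and 7 and at 2122, 2475 and 1078 TPM in WT 2, 3 and 4. KO replicates 2 and 5 exceeded WT replicate 6, the lowest of the first 4 of these, and KO replicates 1, 3 and 4 did not. The log2 fold change was -0.37 ± 0.12 (SE, limma adjusted p of 0.138) with 9 libraries and -0.10 (adjusted p of 0.79) with 12. The remaining peptidases, Ctsa, Ctsc, Ctsh, Ctso, Ctsz and Tpp1, had log2 fold changes between -0.27 and 0.04 with 9 libraries and between -0.16 and 0.72 with 12, Ctsc being at both the -0.27 and the 0.72.

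Of the 14 sugar and sulfate hydrolases, 11 had log2 fold changes above 0 with 9 libraries and 9 with 12, and Manba came closest to the threshold. Manba encodes the lysosomal beta-mannosidase, which removes mannose from N-glycan fragments (chromosome 3, 135485611 to 135571404). KO replicates 1 to 5 were at 31.8, 30.2, 28.4, 31.8 and 30.7 TPM, WT 1, 5, 6 and 7 at 26.8, 26.7, 27.5 and 24.9 TPM, and WT 2, 3 and 4 at 19.8, 20.2 and 19.8 TPM. Every KO library lay above every WT library. The log2 fold change was 0.20 ± 0.0464 (SE) with 9 libraries, with a limma adjusted p of 0.0561, and 0.37 ± 0.0981 (adjusted p of 0.178) with 12. It passed without WT replicate 6 in the smaller set (adjusted p of 0.0497) and over genes with at least 5 TPM (adjusted p of 0.0485).

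All KO libraries also lay above all 7 WT libraries for Arsa, the arylsulfatase that degrades sulfatides, at 16.6 to 17.9 TPM against 14.4 to 16.4 TPM, and for Mitf. That makes 3 of 52 genes (5.77%), against 2.92% of all genes tested, and no gene lay wholly below (0 of 52, against 0.637%). With WT 1, 5, 6 and 7 alone there were 4 of 52 (7.69%, against 7.09%), the added gene being Sgsh, the heparan sulfamidase, at 19.1 to 21.2 TPM in KO and 16.99 to 18.7 TPM in WT 1, 5, 6 and 7. None lay wholly below (against 2.08%). The glycosidase gene Gaa was at 37.9, 38.0, 40.7, 38.1 and 38.4 TPM in KO and at 42.4, 36.4, 37.0 and 40.1 TPM in WT 1, 5, 6 and 7. Gla, another glycosidase gene, was at 57.7, 82.8, 77.8, 65.0 and 81.1 TPM in KO and at 72.1, 75.1, 64.5 and 72.9 TPM in the same WT libraries. Both overlapped between the genotypes, with log2 fold changes of -0.01 (interval -0.12 to 0.10) for Gaa and 0.02 (interval -0.21 to 0.26) for Gla with 9 libraries. With 12 they were -0.37 and -0.28.

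In the sphingolipid group, Psap (chromosome 10, 60277627 to 60302597) was at 3062, 4200.4, 4146, 3417 and 4345 TPM in KO and at 4081, 4362, 2785 and 3964 TPM in WT 1, 5, 6 and 7. On the log2 scale its fold change of 0.02 with 9 libraries had an interval of -0.31 to 0.35, and with 12 libraries it was -0.25 (limma adjusted p of 0.443). Grn, the progranulin gene, was steadier, with a KO mean of 1664 ± 29.2 TPM (SD, n = 5) beside 1616 ± 104 TPM (SD, n = 4) for WT 1, 5, 6 and 7. The acid ceramidase gene Asah1 and the acid sphingomyelinase gene Smpd1 had log2 fold changes of 0.02 and 0.03 with 9 libraries and 0.13 and -0.22 with 12, and that of Grn was 0.04 and 0.26. Of the 6 membrane and lipid transport genes, Lamp1, Lamp2, Npc1, Npc2, Mcoln1 and Cln3, all had log2 fold changes between 0.00 and 0.16 with 9 libraries, and between -0.12 (Lamp1) and 0.54 (Cln3) with 12. The highest with 9 libraries was that of Mcoln1, the calcium channel of the lysosome, with an interval of -0.29 to 0.62.

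None of the proton pump genes was called, and their median changes between the genotypes were small. With 9 libraries the median log2 fold change was 0.03 over the 6 V0 genes and 0.10 over the 8 V1 genes, beside 0.05 over all genes tested. With 12 the medians were 0.03 and -0.03, beside 0.04. Changes were above 0 in 4 of 6 V0 and 7 of 8 V1 genes with 9 libraries, against 67.5% of all genes tested. With 12 they were above 0 in 4 of 6 and 4 of 8, against 57.9%. At an unadjusted limma p under 0.05 were 0 of 6 V0 and 3 of 8 V1 genes with 9 libraries, against 18.9% of all. With 12 these were 1 of 6 and 1 of 8, against 17.5%. The membrane ring subunit gene Atp6v0c was the most abundant pump gene in mean level, with a KO mean of 772 ± 59.2 TPM (SD, n = 5) beside 765 ± 37.5 TPM (SD, n = 4) for WT 1, 5, 6 and 7. Pseudogenes of Atp6v0c are annotated, so its level is uncertain. Atp6v1b2, which encodes a subunit of the ATP-splitting head (chromosome 8, 69088646 to 69113711), had the largest V1 difference. It was at 196, 266, 259, 227 and 252 TPM in KO, at 190.1, 205, 187 and 184 TPM in WT 1, 5, 6 and 7, and at 243, 228 and 194 TPM in WT 2, 3 and 4. KO replicate 1 lay inside the WT range, and the other KO libraries lay above WT 1, 5, 6 and 7. The log2 fold change was 0.32 ± 0.085 (SE, limma adjusted p of 0.0825) with 9 libraries and 0.23 (adjusted p of 0.257) with 12, and without KO replicate 1 it was 0.39 (adjusted p of 0.0151) in the smaller set.

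Atp6v0d2 is the alternative form of the V0 d subunit, abundant in osteoclasts and some macrophages, while Atp6v0d1 is the form found in most cells. Atp6v0d2 (chromosome 4, 19876841 to 19922605) was at 3.97, 48.7, 43.6, 20.4 and 36.8 TPM in KO and at 32.5, 39.5, 14.04 and 32.0 TPM in WT 1, 5, 6 and 7. WT 2, 3 and 4 held 11.98, 8.69 and 4.48 TPM. Both genotypes spanned low and high values, with a ratio of highest to lowest of 12.3 in KO. Its log2 fold change was -0.22 with an interval of -1.66 to 1.21 for 9 libraries, and 0.51 with an interval of -0.91 to 1.92 for 12. Atp6v0d1 lay at 127 to 137 TPM in KO and 118 to 135 TPM in WT 1, 5, 6 and 7.

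**Figure D3:**
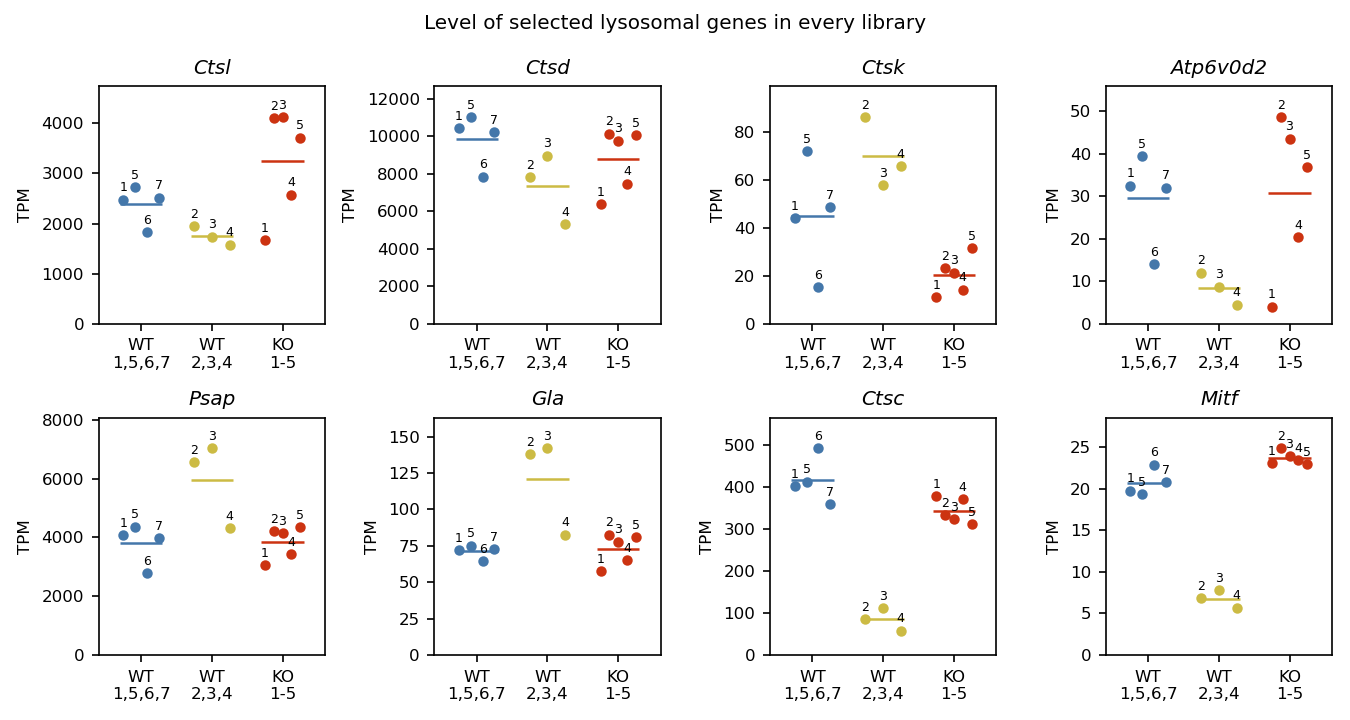
TPM (y axes, from 0) of 8 lysosomal genes in each library, with points numbered by replicate and lines at the mean of WT 1, 5, 6 and 7, of WT 2, 3 and 4, and of the 5 KO libraries. KO replicate 1 sits lowest of KO, and WT replicate 6 lowest of WT 1, 5, 6 and 7, for Ctsl, Ctsd, Ctsk, Atp6v0d2, Psap and Gla, and the points of WT 2, 3 and 4 lie below all others for Ctsc and Mitf.

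Of the 3 MiT-TFE factors, Mitf showed the least overlap. Mitf (chromosome 6, 97807052 to 98021349) was at 23.1, 24.8, 23.9, 23.4 and 23.0 TPM in KO, at 19.8, 19.3, 22.9 and 20.8 TPM in WT 1, 5, 6 and 7, and at 6.85, 7.83 and 5.70 TPM in WT 2, 3 and 4. The lowest KO value stood just above the highest WT value, that of replicate 6. The log2 fold change was 0.19 ± 0.0533 (SE, limma adjusted p of 0.0985) with 9 libraries, 0.23 (adjusted p of 0.0268) without WT replicate 6, and 0.82 (adjusted p of 0.259) with 12. Tfeb was at 28.1, 31.2, 34.5, 32.5 and 26.9 TPM in KO, at 28.3, 25.9, 27.5 and 29.8 TPM in WT 1, 5, 6 and 7 and at 16.6, 18.1 and 12.9 TPM in WT 2, 3 and 4. KO exceeded WT by 0.13 on the log2 scale with 9 libraries (interval -0.04 to 0.30) and by 0.47 with 12 (limma adjusted p of 0.267). Tfe3 was the most abundant of the 3, at 75.6, 70.5, 68.2, 74.3 and 72.9 TPM in KO, 81.6, 73.7, 87.6 and 75.3 TPM in WT 1, 5, 6 and 7 and 53.6, 59.4 and 45.9 TPM in WT 2, 3 and 4. Its log2 fold change was -0.13 with 9 libraries (limma adjusted p of 0.231) and 0.12 with 12 (adjusted p of 0.606). Transcript levels do not report where these proteins sit in the cell, which is a main point of their control.

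Libraries of the same genotype differed in the lysosomal genes together. KO replicate 1 was the lowest of the 5 KO libraries for 37 of 52 genes (71.2%), against 28.1% of all genes tested. KO replicates 1 and 4 were the 2 lowest for 34 of 52 (65.4%, against 18.7%), among them all 8 V1 subunits and 8 of 11 peptidases. WT replicate 6 was the lowest of WT 1, 5, 6 and 7 for 35 of 52 (67.3%, against 33.6%), including 12 of 14 V-ATPase genes and 9 of 11 peptidases. For 29 of 52 genes KO replicate 1 and WT replicate 6 were each the lowest, against 15.5% of all genes. These orders were read from the values and not tested. None of the 3 MiT-TFE genes was lowest in KO replicate 1 or in WT replicate 6.

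The ratio of highest to lowest KO library was 2 or more for Ctsk, Ctsl, Mcoln1 and Atp6v0d2 and under 1.2 for 25 of the 52 genes. Mcoln1 was at 44.8 TPM in KO replicate 1 and 69.9 to 93.1 TPM in the other KO libraries. The neutrophil marker sum was 6272 and 4389 TPM in KO replicates 1 and 4, where the other KO libraries had 1014 to 2116 TPM, and 1204 TPM in WT replicate 6, the lowest of its 4. The summed fibroblast and smooth muscle markers were 204 and 287 TPM in KO replicates 1 and 4 and 117 TPM in WT replicate 6, against 406 to 626 TPM in the other 6 of the 9 libraries. The 7 dendritic cell markers, of which only Itgax reached 1 TPM in KO, summed to 12.6, 23.6 and 14.9 TPM in these 3 libraries and to 32.3 to 45.4 TPM in the other 6. Their part in the lysosomal values was not tested.

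WT 2, 3 and 4 did not shift the lysosomal genes as a block. In mean difference from the other WT libraries the 8 V1 genes were all higher and the 3 MiT-TFE genes all lower. Every other role held genes of both directions. These 3 libraries were singled out from the data and are no group of the study, so their values are described without a test. All 3 lay above WT 1, 5, 6 and 7 for 14 of 52 genes (26.9%, against 29.9% of all genes tested) and below them for 14 of 52 (26.9%, against 28.3%). The median difference of log2(TPM + 1) over the 52 genes was 0.04, beside 0.00 over all genes. After median-ratio scaling 11 of 52 lay above (against 28.5% of all genes) and 12 of 52 below (against 31.1%).

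**Figure D4:**
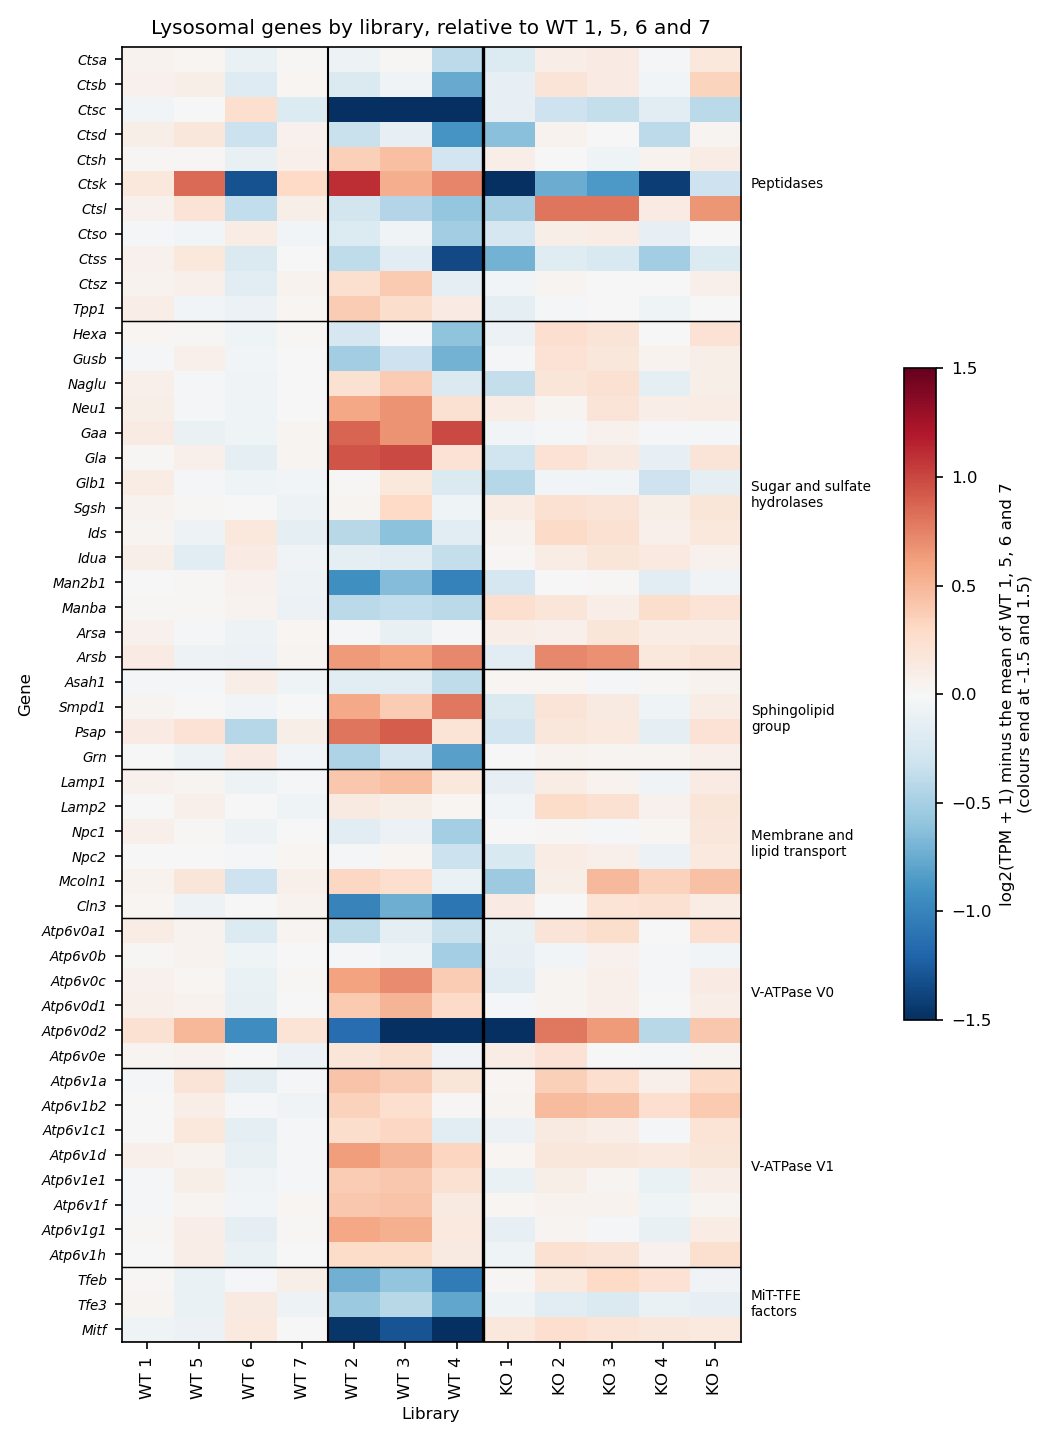
Log2(TPM + 1) of each lysosomal gene (rows, grouped by role) in each library (columns) minus the mean of WT 1, 5, 6 and 7; red is higher, blue is lower, and colours end at -1.5 and 1.5. The columns of WT 2, 3 and 4 are mostly red in the V-ATPase V1 rows and blue in the 3 MiT-TFE rows, and KO replicates 1 and 4 are bluer than the other KO columns.

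The 8 V1 subunits all had a positive mean difference of WT 2, 3 and 4 from WT 1, 5, 6 and 7, with a median of 0.33 on the log2 scale, and 5 of 8 lay above without overlap, where 29.9% of all genes did: Atp6v1d, Atp6v1e1, Atp6v1f, Atp6v1g1 and Atp6v1h. After median-ratio scaling 3 of 8 did so, where 28.5% of all genes did. Atp6v1g1, of the stalk that links the head to the membrane sector, was at 516, 499 and 383 TPM against 314 to 370.2 TPM. In V0 the ring gene Atp6v0c was at 1158, 1254 and 992 TPM against 712 to 799 TPM, and Atp6v0d1 at 169, 182 and 157 TPM against 118 to 135 TPM. Atp6v0d2 went the other way, with the other 4 WT libraries 3.52-fold higher in mean. On a wider list of pump and accessory genes, 6 of 12 tested lay below without overlap (against 28.3% of all genes) and 2 above (against 29.9%). Tcirg1, the a3 subunit of V0, taken from that list, was at 297, 279 and 252 TPM against 606.5, 493, 512 and 587 TPM in WT 1, 5, 6 and 7. In KO it was at 495, 471, 599, 573 and 530.5 TPM, a log2 difference from WT of -0.04 with 9 libraries and 0.38 with 12 (limma adjusted p of 0.83 and 0.345).

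Among the sugar and sulfate hydrolases, Gaa and Gla had the largest positive differences, and among the peptidases Ctsk had, with log2 differences of 0.84, 0.72 and 0.79. Gaa, the acid glucosidase that degrades glycogen, was at 71.9, 62.4 and 78.5 TPM against 36.4 to 42.4 TPM, 1.82-fold in mean. Gla, the galactosidase that removes galactose from globosides, was at 138, 142 and 82.7 TPM against 64.5 to 75.1 TPM. Psap reached 6558, 7022 and 4320.5 TPM, the third value lying inside the range of 2785 to 4362 TPM of the other WT libraries. Neu1, Arsb, Smpd1, Tpp1 and Lamp1 were also above in all 3 libraries. Ctsk was higher in mean (1.55-fold) but overlapped.

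The largest negative difference was that of Ctsc, the dipeptidyl peptidase that activates granule serine proteases (chromosome 7, 88278085 to 88310888). It was at 84.8, 112 and 58.2 TPM in WT 2, 3 and 4, at 403, 413, 493 and 360.2 TPM in WT 1, 5, 6 and 7 and at 379, 334, 324, 371 and 313 TPM in KO. The mean of WT 1, 5, 6 and 7 was 4.90-fold that of the 3. Its log2 fold change between genotypes was 0.72 (interval -0.44 to 1.89) with 12 libraries and -0.27 (interval -0.48 to -0.07, limma adjusted p of 0.144) with 9, so its sign turned with these libraries. Mitf was 3.04-fold, Tfeb 1.76-fold and Tfe3 1.5-fold higher in WT 1, 5, 6 and 7, with no overlap for any of the 3. Cln3 (1.92-fold; it overlaps the expressed gene Apobr on the other strand), Man2b1 (1.81-fold), Gusb (1.42-fold), Grn (1.41-fold), Ids, Manba, Asah1, Npc1 and Ctso were below without overlap as well. Over the 16 genes with an E-box in the promoter window the median log2 difference was 0.11, with a range of -0.94 to 0.84. Over the 27 without, which include the 3 MiT-TFE genes, it was -0.22, with a range of -2.32 to 0.79. For KO against WT with 9 libraries the medians of these 2 sets were 0.04 and 0.03. The split by E-box was not tested.

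In these 3 libraries 8 of the 9 tested fibroblast and smooth muscle markers lay above the other WT libraries and 8 of 9 tested neutrophil markers below, as did 7 of 12 macrophage markers. The tested fibroblast marker that overlapped was Dcn, at 11.05, 3.22 and 4.38 TPM against 2.06 to 7.93 TPM in WT 1, 5, 6 and 7. None of the listed fibroblast markers was at 0 in every library, but Lum stayed at or under 0.12 TPM throughout. The macrophage sum was lowest in WT replicate 4 (7961 TPM), which also had the smallest lysosomal share. Other libraries did not follow that order. The sum was highest in WT replicate 6 (30043 TPM), where the share was 3.41%. KO replicate 5, with the largest share (4.40%), had a sum of 17091 TPM. The part of other cells in the lysosomal values was not tested.

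The rest of the lysosomal system was read from lists of other genes. The 7 lists held 140 tested genes. With 12 libraries limma called 0 of them, 35 being at an unadjusted p under 0.05 (25%, against 17.5% of all genes). With 9 it called 5 of 140 (3.57%, against 2.33% of all genes), a share near that background. None of the 30 tested other hydrolases, 24 membrane proteins and channels, 12 other pump and accessory genes or 5 cathepsin inhibitors was called. Of 24 sorting genes 1 rose, Gnptab, a subunit of the enzyme that places the mannose 6-phosphate tag on hydrolases. It was at 73.7, 75.9, 77.8, 76.5 and 76.0 TPM in KO and at 65.6, 58.9, 60.9 and 63.2 TPM in WT 1, 5, 6 and 7. The log2 fold change was 0.29 ± 0.0372 (SE, limma adjusted p of 0.0081), and it kept its call in all 14 alternatives run with 9 libraries. WT 2, 3 and 4 held 33.1, 31.4 and 33.5 TPM of Gnptab, and the adjusted p with 12 libraries was 0.214.

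Of 22 nutrient-sensing genes 2 rose with 9 libraries. Lamtor1, which anchors the Ragulator complex to the lysosome, was at 306, 318, 307, 295 and 301 TPM in KO and at 254, 255, 272 and 243 TPM in WT 1, 5, 6 and 7. The values of WT 2, 3 and 4 were lower still, at 218, 237 and 215 TPM. On the log2 scale it rose by 0.25 ± 0.0379 (SE, limma adjusted p of 0.0148), and 0.34 (adjusted p of 0.0827) with 12 libraries. Fnip2, a partner of folliculin in signalling to the MiT-TFE factors, was at 75.3, 82.4, 81.2, 80.5 and 88.1 TPM in KO and at 71.2, 68.4, 62.1 and 69.7 TPM in WT 1, 5, 6 and 7. In WT 2, 3 and 4 it was at 82.8, 79.3 and 63.7 TPM, overlapping KO. The log2 difference was 0.26 (limma adjusted p of 0.04) with 9 libraries and 0.20 (adjusted p of 0.244) with 12.

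Of 24 autophagy genes Nbr1 rose and Sqstm1 fell with 9 libraries, both of them cargo receptors. Nbr1 was at 36.0, 37.7, 40.4, 39.6 and 39.0 TPM in KO and at 32.8, 32.6, 32.5 and 32.8 TPM in WT 1, 5, 6 and 7, a log2 difference of 0.23 (limma adjusted p of 0.0224). With 12 libraries it was 0.16 (adjusted p of 0.226). WT 2, 3 and 4 lay at 36.5, 35.1 and 38.1 TPM, inside or just below the KO range. Sqstm1 was at 521, 546, 538, 538 and 607 TPM in KO, 659.9, 645, 606 and 656 TPM in WT 1, 5, 6 and 7, and 1002, 1045 and 970 TPM in WT 2, 3 and 4. Its log2 fold change was -0.22 (limma adjusted p of 0.0458) with 9 libraries and -0.50 (adjusted p of 0.214) with 12, and KO replicate 5 and WT replicate 6 differed by less than 1 TPM. The call was kept in 13 of 14 alternatives for Lamtor1, 9 for Nbr1, 5 for Sqstm1 and 4 for Fnip2. Without WT replicate 1 the limma adjusted p was 0.0546 for Lamtor1, 0.0791 for Fnip2, 0.0723 for Nbr1 and 0.135 for Sqstm1.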

How the data were processed

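RNA of 12 libraries was sequenced by the submitters; bcl2fastq, Salmon 1.2.0 and mm10 appear in the submitters' processing notes. The authors deposited 1 table whose values were read as TPM (the header names no unit; the 12 columns sum to 940127 to 947987). Not given in the sources used here: annotation release, gene summing and strand handling. TPM keeps no depth, so no counting interval was computed. Gene bodies of 9 members overlap another gene at 1 TPM or more, 8 of them on the opposite strand only. Whether exons are shared was not checked, so it is not known whether reads there were mixed.

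Symbols and positions came from GENCODE M21 (GRCm38), which matched 23423 of 23438 IDs. The fit was limma-trend (limma 3.58.1, R 4.3.3) on log2(TPM + 1) with genotype as the only term, as 12 and as 9 libraries. In simulated data over 11152 genes, 22%, 62%, 82% and 96% of genes changed by 1.25, 1.5, 2 and 4-fold were called with 12 libraries. With 9 libraries 70%, 94%, 90% and 100% were called. The rate with 9 libraries was lower at 2-fold than at 1.5-fold, so these rates are coarse. Whether the simulated spread matched that of the real libraries, some of which shifted together, was not tested. The rates therefore do not give the chance of calling a changed lysosomal gene.

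The members, lists, the set of 9 libraries and the E-box search were chosen with earlier results of these data known. Given in every library are members called in either fit, the 5 most abundant, the 3 largest differences of WT replicates 2, 3 and 4 in each direction, and the MiT-TFE factors; from the wider lists, called genes and Tcirg1. Manba, Atp6v1b2, Arsa, Sgsh, Grn, Mcoln1, Neu1, Atp6v0c, Atp6v0d1, Atp6v1g1 and the markers named singly were chosen after their values were seen. Alternatives were another pseudocount, scaling, filters, a submission-number covariate, a replicate block and leaving out each library.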

Additional observations from a re-analysis of the deposited data

Results flagged for a closer look

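Each gene was checked for a library far from the others of its genotype, by the gap to the nearest library over the range of the group (Dixon's ratio at its 95% value). Of 106 groups checked, 10 held such a library, where chance alone gives about 1 in 20. WT replicate 4 stood low for Ctsa at 611 TPM (other WT 747 to 836), Ctsb at 4666 TPM (6796 to 8412), Npc2 at 307 TPM (378 to 394) and Atp6v0b at 455 TPM (619 to 671). WT replicate 3 stood high for Sgsh at 22.3 TPM (16.99 to 18.7). In KO, replicate 3 stood high for Gaa at 40.7 TPM (37.9 to 38.4) and for Arsa at 17.9 TPM (16.6 to 16.96), and replicate 5 for Npc1 at 97.8 TPM (85.3 to 88.2). KO replicate 1 stood low for Atp6v1d at 60.3 TPM (65.4 to 67.1) and KO replicate 4 for Atp6v1f at 488 TPM (521 to 532).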

How the results depend on the processing

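With 12 libraries limma called 0 of the 52 lysosomal genes under each alternative run, except 1 (Ctsk) without WT replicate 6; leaving out 1 library gave 0 to 1. With 9 libraries leaving out 1 gave 0 to 3: Ctsk, Manba and Mitf without WT replicate 6, and Atp6v1b2 without KO replicate 1. A minimum of 5 TPM gave 1 (Manba). Over all genes, the 14 calls with 12 libraries became 4 with median-ratio scaling (2 rising and 2 falling, where the unscaled fit had 12 and 2), 3 with the submission covariate and 2 to 36 when 1 library was left out. The 260 calls with 9 libraries became 218 with that scaling (82 rising and 136 falling, where the unscaled fit had 180 and 80), 132 with the submission covariate and 51 to 462 on leaving out 1. Scaling turned the log2 fold changes of Ctsd to -0.033 (12 libraries) and of Psap and Gla to -0.026 and -0.024 (9 libraries). Leaving out 1 library moved them from -0.11 to 0.12 (Ctsd), -0.12 to 0.10 (Psap) and -0.026 to 0.10 (Gla), and from -0.043 to 0.029 for Gaa and -0.53 to 0.35 for Atp6v0d2 with 9. The causes were not tested. The share difference stayed within 1 pooled SD of its value in every alternative. A replicate block on the 10 libraries of numbers 1 to 5 left 0 genes called (3706 at an unadjusted limma p under 0.05). Without the block 13 were called in those libraries, and 0 of 52 lysosomal genes in both. Same-numbered libraries correlated at 0.22, 0.20, 0.14, -0.22 and -0.18 in their deviations from the mean of their genotype. The WT mean included WT replicates 2, 3 and 4, so these values cannot decide whether a shared number means a shared origin. Depth is unknown, and the genes under 25 TPM are those whose values it limits most.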
